A study of Mus musculus with 18 samples.

Results

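The piRNA pathway genes described here (Piwil1, Piwil2, Mov10l1, Mael, Ddx4, Tdrd1, Tdrd5, Tdrd6, Tdrd9 and Asz1) were measured by RNA sequencing of whole mouse testis. The 10 members were chosen by symbol, and all were found among the 20979 gene symbols used. The 18 libraries came from ICR mice aged 10 weeks and fell into 6 groups of 3. In 4 groups a high-fat diet (HFD) came with control-labelled FMT (HFD-conFMT), with FMT labelled AOS at 10 mg/kg (HFD-AOSFMT), with AOS at 10 mg/kg (HFD-AOS), or alone (HFD). The remaining groups were AOS at 10 mg/kg without the diet (AOS) and the group labelled control. The labels do not expand AOS or FMT, and no genetic change is named for any group. They also do not state whether the 3 libraries of a group are separate animals, so that p-values measure the spread between these libraries, which may be technical.

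piRNAs are small RNAs of the germline that guide PIWI proteins to transposon and other transcripts, which are then cut or kept silent. In the mouse testis they are made in germ granules beside the mitochondria of spermatogonia and spermatocytes, and in the chromatoid body of round spermatids. A very large population, the pachytene piRNAs, appears in meiosis under the transcription factor A-MYB, which Mybl1 encodes and which also acts on genes of the piRNA machinery. Whole testis mixes all these cells with Sertoli, Leydig and other somatic cells. In such bulk RNA, fewer cells of a type and less RNA per cell cannot be told apart.

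Because A-MYB acts on this pathway, the sequence before the start site was read for the members that RefSeq's promoter table (GRCm38.p6, the assembly of mm10) holds. It has windows for 8 members, Piwil2 and Tdrd6 being the others. The core of the MYB motif was searched as AACTG or AACGG on both strands in the 250 bases before each start. Of the 10 windows of these members, 8 held at least 1 match, where 48.6% of all 32851 windows in the table did. Tdrd1 had 3 windows, not all of them separate stretches, and the windows without a match were 1 of Tdrd1 and that of Asz1. Shown here are the last 120 bases before the start for the member with the smallest p-value between groups (Piwil1), the one of highest level (Mael) and the one of lowest level (Asz1), 5′ to 3′ on the gene's strand with matches in capitals. A match is a string of letters and not a shown binding site. The Piwil1 window is chr5:128736126-128736245 (plus strand), inside the GENCODE gene span and downstream of its annotated first base. The Mael window is chr1:166238745-166238864 (minus strand), and the Asz1 window is chr6:18109062-18109181 (minus strand).
Piwil1: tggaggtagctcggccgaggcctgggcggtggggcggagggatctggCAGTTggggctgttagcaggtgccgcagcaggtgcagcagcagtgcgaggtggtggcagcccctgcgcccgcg
Mael: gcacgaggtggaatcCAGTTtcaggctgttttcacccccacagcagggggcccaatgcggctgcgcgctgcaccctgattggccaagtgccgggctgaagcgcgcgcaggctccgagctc
Asz1: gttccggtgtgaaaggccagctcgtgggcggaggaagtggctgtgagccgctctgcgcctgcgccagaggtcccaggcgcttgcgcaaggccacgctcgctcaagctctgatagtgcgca

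Values are as deposited and were read as FPKM, that is, reads scaled to transcript length and to library size. The deposited header names no unit. Sums of these values ran from 588081 to 637005 over the libraries. From 12996 to 13221 genes had a level of 1 FPKM or more. Steps among the lowest values gave relative depths of 0.835 to 1.06, lowest in HFD-AOSFMT 1 and HFD-AOS 3, while absolute depth is not given. The labelled tissue was borne out by its markers, with all 14 spermatocyte, 10 round spermatid and 10 elongating spermatid markers averaging 1 FPKM or more. Some libraries stood apart. Crisp1, a secretory gene of the epididymis, reached 103.97 FPKM in HFD-conFMT 2 and 158.77 FPKM in control 3, against 0 to 8.60 FPKM in the other 16 libraries. Summed elongating spermatid markers were at 42931 FPKM in HFD 2 and at 45855 to 63764 FPKM in the other libraries. The fold changes of the 10 members and the counts of genes called were also computed without each library in turn and without both libraries of high Crisp1. Other pathway genes, ratios and counts of groups without overlap were not.

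The 10 members spanned a wide range of levels that was much the same in every group. Mael, which encodes the HMG-box protein maelstrom needed for transposon silencing, was far the highest at 1117 FPKM (range 1071 to 1193 over 18 libraries). It ranked 43 of the 13105 genes tested and made up 61.9 to 66.4% of the summed FPKM of the members. Ddx4, the RNA helicase of germ granules known as mouse VASA, followed at 220.7 FPKM (205.22 to 237.07). Piwil1, the PIWI protein MIWI of pachytene spermatocytes and round spermatids, averaged 110.7 FPKM (99.74 to 120.92). Tdrd6, a scaffold of the chromatoid body, averaged 103.9 FPKM (97.42 to 117.97).

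Below these came 6 genes between 13 and 39 FPKM on average. Tdrd1, the Tudor protein that binds methylated arginines of MILI, averaged 38.9 FPKM, and Tdrd5, a Tudor protein with LOTUS domains, 38.3 FPKM. Piwil2, the PIWI protein MILI, which is present from fetal germ cells to round spermatids, averaged 29.9 FPKM. Tdrd9, a Tudor-domain helicase, averaged 28.1 FPKM and Mov10l1, the helicase that hands piRNA precursors to processing, 24.5 FPKM. Asz1, an ankyrin-repeat protein of the outer mitochondrial membrane, was lowest at 13.5 FPKM (11.73 to 15.62). In GENCODE on mm10, Mael lies on chromosome 1 from 166201201 to 166238747 and Tdrd5 on the same chromosome from 156255296 to 156303664, both on the minus strand. Piwil2 lies on chromosome 14 from 70372477 to 70429383 and Asz1 on chromosome 6 from 18050964 to 18109061, also on the minus strand. Tdrd1 (chromosome 19 from 56826209 to 56870012), Tdrd9 (chromosome 12 from 111971559 to 112068854) and Mov10l1 (chromosome 15 from 88982909 to 89055152) lie on the plus strand.

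Neighbours in that order were not always distinct. Mael lay above Ddx4 in all 18 libraries, as did Ddx4 above Piwil1, Tdrd6 above Tdrd1, Tdrd5 above Piwil2 and Mov10l1 above Asz1, each pair with no overlap of its ranges. Piwil1 exceeded Tdrd6 in 15 of 18 libraries, with a ratio of means of 1.07. Tdrd1 exceeded Tdrd5 in 12 of 18, with a ratio of 1.01, so these levels did not differ beyond their spread. Piwil2 exceeded Tdrd9 in all 18 although their ranges overlapped, and Tdrd9 exceeded Mov10l1 in 17. The full order of the 10 was kept in 9 of 18 libraries.

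**Figure D1:**
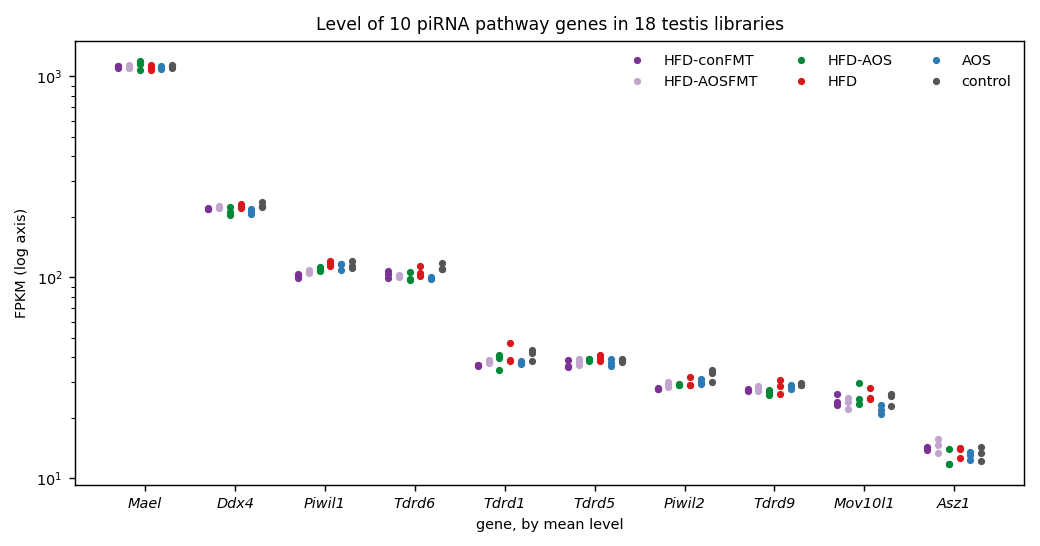
Level of each member in FPKM (log axis) in 18 libraries, with genes ordered by mean level and points coloured by group. Mael lies near 1117 FPKM and Asz1 near 13.5 FPKM, and the spread between groups is small beside the spread between genes.

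Within a gene the groups differed little. The ratio of the highest to the lowest group mean ran from 1.03 for Mael to 1.18 for Mov10l1. The coefficient of variation within groups was 2.60% for Ddx4, 2.83% for Mael, 3.16% for Piwil1 and 7.99% for Mov10l1, with the other 6 genes between. In a limma F test over the 6 groups, 0 of 10 members had an adjusted p under 0.05, where 0.328% of the 13105 genes tested did (43 genes), and 4 of 10 members (Piwil1, Piwil2, Tdrd6 and Ddx4) and 18% of genes had an unadjusted p under 0.05. The lowest adjusted p-values of that limma test were 0.115 for Piwil1, 0.192 for Piwil2 and 0.198 for Tdrd6, and the highest was 0.929 for Mael.

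Some libraries ranked high or low for many members at once. HFD 2 was among the 3 highest of the 18 libraries for 8 of the 10 members, and was the highest for Piwil1, Tdrd1, Tdrd5 and Tdrd9. It was the lowest library of all for Mael and ranked 14 for Asz1. Control 2 was among the 3 highest for 5 members, while HFD-AOS 3 was among the 3 lowest for 6. These ranks were not counted over all genes, so they describe the libraries and are no result about the members. FPKM over all genes summed to 588565 in HFD 2, 589844 in control 2 and 614503 in HFD-AOS 3. The mean of the members' z-scores (each log2 value centred and divided by its SD over 18 libraries) was 1.17 in HFD 2 and 1.21 in control 2, and -1.07 in HFD-AOS 3. The other 15 libraries lay between -0.52 and 0.42. HFD 2 is also the library with the lowest elongating spermatid sum; that sum was 46822 FPKM in control 2 and 59709 FPKM in HFD-AOS 3, and its part in the members' values was not tested.

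**Figure D2:**
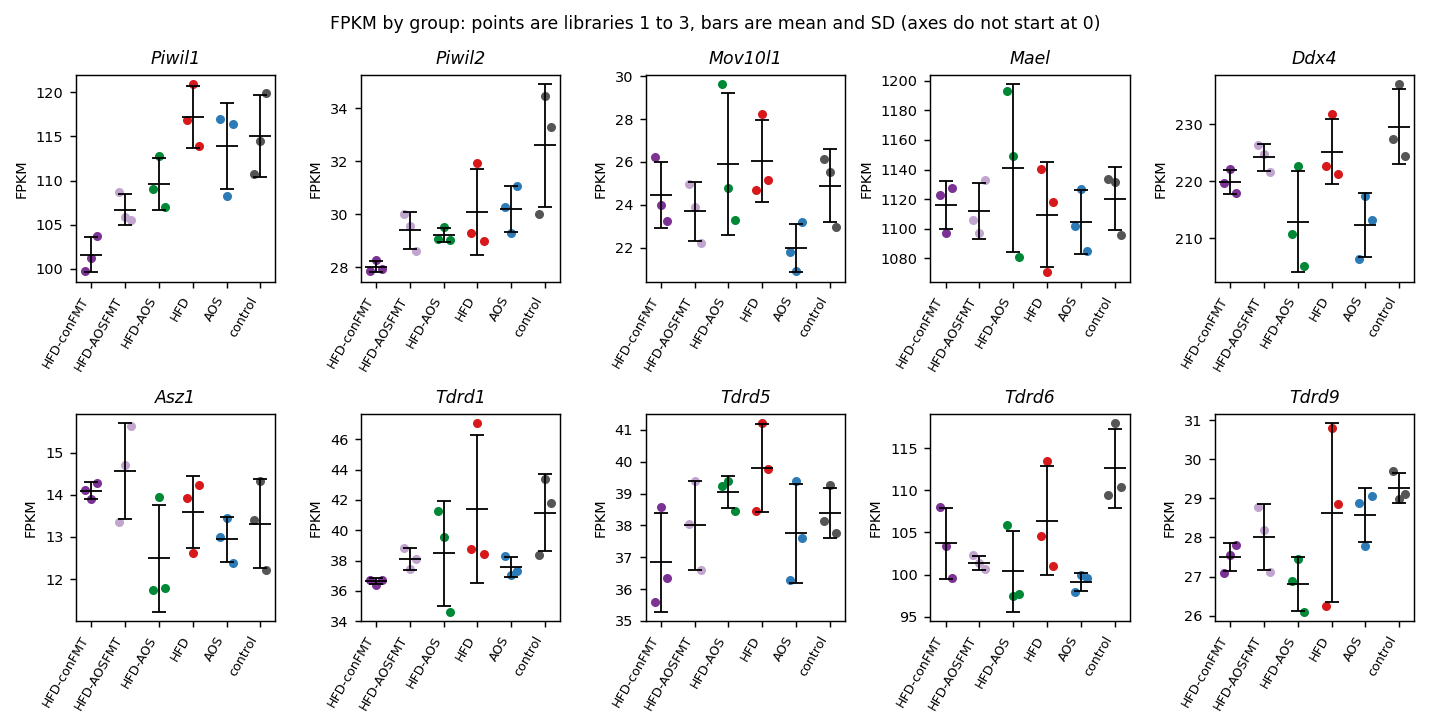
FPKM of each member by group, with the 3 libraries as points and the mean and SD as bars; the vertical axes do not start at 0. Piwil1 is lowest in the 3 HFD-conFMT libraries (99.74 to 103.71 FPKM), and HFD 2 is the top point of the HFD group for every member but Mael and Asz1.

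The comparison of HFD-conFMT with HFD asked what control-labelled FMT did in testes of mice on the diet. Piwil1 gave the smallest p-value of any member in any comparison here. It was at 99.74, 101.25 and 103.71 FPKM in HFD-conFMT, against 116.79, 120.92 and 113.87 FPKM in HFD. All 3 HFD-conFMT libraries lay below all 3 HFD libraries, and below every other library of the series. The group means were 101.6 ± 2.00 and 117.2 ± 3.54 FPKM (SD, n = 3 each). The log2 fold change was -0.20 (SE 0.041, 95% interval -0.29 to -0.12), and its limma p-value ranked 16 of 13105 genes. After Benjamini-Hochberg adjustment over all genes, limma gave an adjusted p = 0.104, which misses the threshold of 0.05.

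The adjusted p of this Piwil1 difference ranged from 0.0538 to 0.35 over the alternatives, and the log2 fold change from -0.23 to -0.18. Without HFD 2, the highest Piwil1 library, the log2 fold change was -0.18 and the adjusted p 0.33. Without both libraries of high Crisp1, one of which is HFD-conFMT 2, these were -0.20 and 0.35. Piwil1 lies on chromosome 5 from 128702524 to 128755474 (mm10, plus strand, GENCODE).

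Tudor-domain genes and Piwil2 showed smaller differences in the same comparison. Tdrd1 was at 36.74, 36.39 and 36.75 FPKM in HFD-conFMT, against 38.73, 47.06 and 38.40 FPKM in HFD. The groups did not overlap, but 1 HFD library stood well above the rest (log2 fold change -0.17, SE 0.072, limma adjusted p = 0.378). Without HFD 2 the log2 fold change of Tdrd1 was -0.073. Tdrd5 was at 35.59, 38.58 and 36.34 FPKM in HFD-conFMT and at 38.46, 41.21 and 39.77 FPKM in HFD, with overlapping values (log2 fold change -0.11, SE 0.043, limma adjusted p = 0.345).

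Piwil2 was at 27.85, 28.25 and 27.92 FPKM in HFD-conFMT, against 29.28, 31.92 and 29.00 FPKM in HFD. These values did not overlap, yet its log2 fold change of -0.098 (SE 0.049) had a limma adjusted p = 0.439. Without HFD 2 the log2 fold change of Piwil2 was -0.055. Mael, at 1116 ± 16.2 FPKM in HFD-conFMT and 1110 ± 35.6 FPKM in HFD, had a log2 fold change of 0.0087 with a 95% interval of -0.075 to 0.093. With quantile normalization that of Mael was -0.094, outside this interval, with a limma adjusted p = 0.276. Tdrd6, Tdrd9, Ddx4 and Mov10l1 had log2 fold changes between -0.084 and -0.034, and Asz1 one of 0.051.

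Counted together, 0 of 10 members passed at an adjusted p under 0.05 in HFD-conFMT against HFD, where 0% of all genes did by limma. Before adjustment, 1607 genes in all (12.3%) had p under 0.05, and so did 3 members, Piwil1, Tdrd1 and Tdrd5, all lower, where 5.26% of all genes were so called. The count of members was 1 without HFD 2, without HFD-conFMT 1, without HFD-conFMT 3 or with only the compared groups in the fit, and 6 with quantile normalization. Values did not overlap, on the lower side, for 3 members (Piwil1, Piwil2 and Tdrd1), where 9.83% of genes were in that state. Higher values with no overlap were seen for 0 members and 10.3% of genes. Fold changes lay below 0 for 8 of 10 members and 50.8% of genes. The median log2 fold change was -0.069 over the members and -0.0020 over all genes.

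Transcript length moved with these fold changes. Over 12851 genes the log2 fold change between HFD-conFMT and HFD correlated with the longest annotated transcript at a Spearman rho of -0.324, a correlation across genes, which are not independent replicates. Genes with transcripts of at least 4568 bases had a median log2 fold change of -0.044, and those of up to 1945 bases 0.062. Piwil1 has 4016 bases, Tdrd1 5187, Tdrd5 3759, Piwil2 4916 and Mael 1691. Tdrd6 has 7059, Tdrd9 4809, Mov10l1 4133, Ddx4 3012 and Asz1 2345. The log2 fold changes of these last genes were -0.036, -0.054, -0.084, -0.034 and 0.051 in that order. The part of length in the members' values was not tested. Summed elongating spermatid markers were 58825 ± 2474 FPKM in HFD-conFMT and 51571 ± 7492 FPKM in HFD. Spermatocyte markers summed to 1826 ± 35.8 FPKM in HFD-conFMT and 1848 ± 14.9 FPKM in HFD, and round spermatid markers to 1917 ± 8.24 FPKM in HFD-conFMT and 1962 ± 70.0 FPKM in HFD. Fold changes were above 0 for 4 of 5 macrophage markers (median 0.19) and 3 of 3 blood markers (median 0.54), and for 4 of 7 Leydig cell markers (median 0.0050), none of them called. Their part in the members' values was not tested.

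The comparison of HFD-AOSFMT with HFD asked the same of AOS-labelled FMT, with the same HFD libraries. Piwil1 was at 108.69, 105.84 and 105.57 FPKM in HFD-AOSFMT, against 116.79, 120.92 and 113.87 FPKM in HFD. The groups did not overlap, and the log2 fold change was -0.13 (SE 0.041, 95% interval -0.22 to -0.047, limma adjusted p = 0.376). Mov10l1, at 23.7 ± 1.37 FPKM in HFD-AOSFMT and 26.0 ± 1.90 FPKM in HFD, had a log2 fold change of -0.13, but with an SE of 0.082. Tdrd1 had one of -0.11 (SE 0.072), which was -0.017 without HFD 2. Asz1 was at 13.36, 14.70 and 15.62 FPKM in HFD-AOSFMT and at 13.93, 12.61 and 14.22 FPKM in HFD, with overlapping values (log2 fold change 0.092, SE 0.074). Ddx4 differed by -0.0062 and Mael by 0.0036 on the log2 scale.

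Of the 10 members, 0 had an adjusted p under 0.05 between HFD-AOSFMT and HFD, where 0.0229% of genes did by limma (3 genes). Piwil1 alone had an unadjusted p under 0.05, and it alone had values with no overlap. Among all genes 9.82% had such a p and 4.59% were lower at it, while 8.88% were lower and 8.34% higher with no overlap. Fold changes lay below 0 for 8 of 10 members and 52.6% of genes. The median log2 fold change was -0.048 over the members and -0.0061 over all genes, and fold changes again correlated with transcript length across genes (Spearman rho -0.308).

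Both FMT groups were set against each other as HFD-AOSFMT and HFD-conFMT, which asks whether the label of the transplant matters. Piwil1 was at 108.69, 105.84 and 105.57 FPKM in HFD-AOSFMT, against 99.74, 101.25 and 103.71 FPKM in HFD-conFMT, with no overlap. Its log2 fold change was 0.071 (SE 0.041, 95% interval -0.016 to 0.16, limma adjusted p = 1). Piwil2 was at 29.99, 29.54 and 28.61 FPKM in HFD-AOSFMT and at 27.85, 28.25 and 27.92 FPKM in HFD-conFMT (log2 fold change 0.067, SE 0.049). Tdrd1 was at 38.84, 37.43 and 38.07 FPKM in HFD-AOSFMT and at 36.74, 36.39 and 36.75 FPKM in HFD-conFMT (log2 fold change 0.056, SE 0.072). In each of these 3 genes all HFD-AOSFMT libraries lay above all HFD-conFMT libraries, with a fold change of less than 2 SE of the fit.

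That state, higher with no overlap, held for 3 of 10 members and for 4.68% of all genes, and the opposite one for 0 members and 5.39% of genes. Fold changes lay below 0 for 3 of 10 members and 52.9% of genes. An adjusted p under 0.05 was found for 0 of 10 members, where 0.00763% of genes had one by limma (1 gene), and an unadjusted p under 0.05 for 0 of 10 members and 3.12% of genes (1.87% lower). The median log2 fold change was 0.035 over the members and -0.0053 over all genes. Fold changes had a Spearman rho of 0.0554 with transcript length in this comparison.

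**Figure D3:**
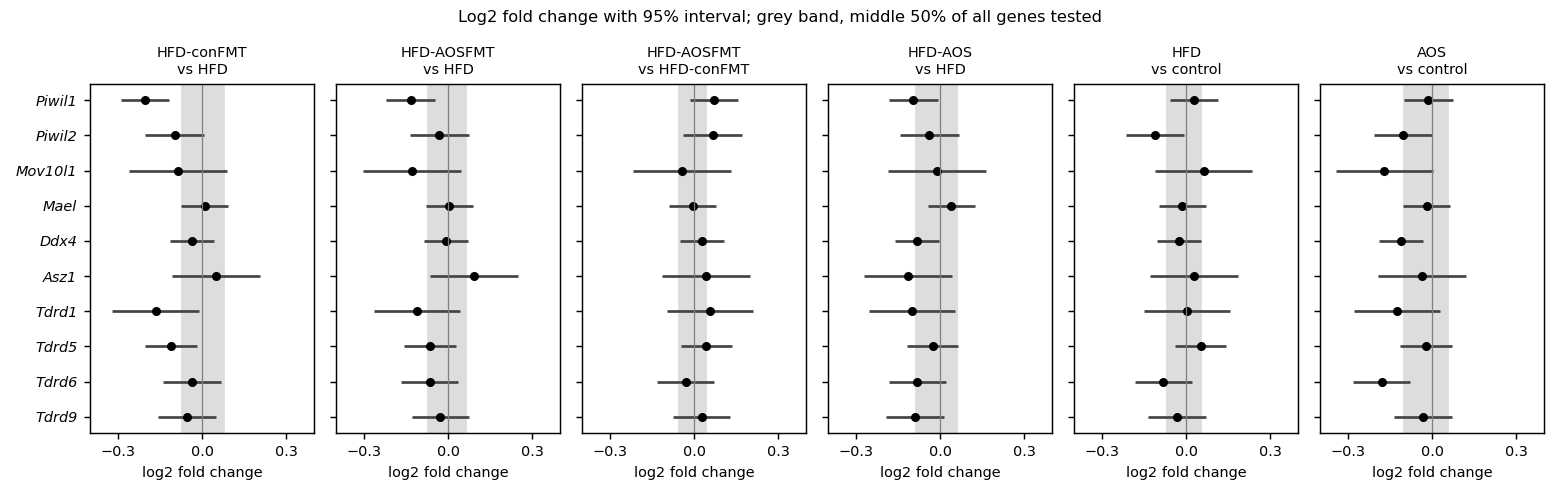
Log2 fold change of each member (point) with its 95% interval (line) in the 6 comparisons; the grey band holds the middle 50% of all 13105 genes tested. Piwil1 between HFD-conFMT and HFD, at -0.20, is the value farthest from 0, and no member passed after adjustment.

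AOS given along with the diet was examined by setting HFD-AOS beside the same HFD libraries. Piwil1 was at 109.01, 112.80 and 106.95 FPKM in HFD-AOS, against 116.79, 120.92 and 113.87 FPKM in HFD. Its values did not overlap, with a log2 fold change of -0.096 (SE 0.041, limma adjusted p = 0.358). Ddx4 was at 210.75, 222.62 and 205.22 FPKM in HFD-AOS and at 222.62, 231.79 and 221.31 FPKM in HFD, so that the groups overlapped, HFD-AOS 2 lying above HFD 3 (log2 fold change -0.082, SE 0.037, limma adjusted p = 0.378). Ddx4 lies on chromosome 13 from 112598333 to 112652475 (mm10, minus strand).

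Other members varied more between libraries in this comparison, and the direction for Mov10l1 rested on single ones. Mov10l1 was at 29.63, 24.77 and 23.30 FPKM in HFD-AOS, against 24.72, 28.21 and 25.15 FPKM in HFD, so that its log2 fold change was -0.012 with a 95% interval of -0.19 to 0.16, and it was above 0 without HFD 2, HFD-AOS 2 or HFD-AOS 3. Asz1 was at 11.73, 13.95 and 11.79 FPKM in HFD-AOS and at 13.93, 12.61 and 14.22 FPKM in HFD (log2 fold change -0.11, SE 0.074). Tdrd9 was at 26.89, 27.45 and 26.10 FPKM in HFD-AOS and at 26.24, 30.80 and 28.86 FPKM in HFD (log2 fold change -0.089, SE 0.048). All of these groups overlapped. Leaving out 1 library gave log2 fold changes of -0.19 to -0.075 for Asz1 and of -0.15 to -0.036 for Tdrd9, all below 0. Mael was the one member with a fold change above 0, at 0.040.

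In HFD-AOS against HFD, 0 of 10 members had an adjusted p under 0.05, where 0% of genes did by limma. Piwil1 and Ddx4 had an unadjusted p under 0.05, as did 12.7% of all genes (1664 genes), 7.81% of genes being lower. The count of members was 0 without HFD 2, without HFD-AOS 3, with median centring, with array weights, with no mean-variance trend and with only the compared groups in the fit. Lower values with no overlap were seen for 1 member and 8.49% of genes, and higher ones for 0 members and 4.9% of genes. Fold changes lay below 0 for 9 of 10 members and 56.1% of genes. The median log2 fold change was -0.082 over the members and -0.017 over all genes, with a Spearman rho of -0.206 with length.

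Diet alone was examined by setting HFD beside control, and here the members were split evenly, 5 with a fold change above 0 and 5 below, where 54.8% of genes lay below. Piwil2 had the smallest p-value, at 29.28, 31.92 and 29.00 FPKM in HFD against 30.00, 34.47 and 33.29 FPKM in control. The groups overlapped through HFD 2 and control 1 (log2 fold change -0.11, SE 0.049, limma adjusted p = 0.724). Tdrd6 was at 104.57, 113.50 and 101.01 FPKM in HFD and at 109.40, 117.97 and 110.38 FPKM in control (log2 fold change -0.082, SE 0.048). Piwil1 had a log2 fold change of 0.027 with a 95% interval of -0.060 to 0.11, and Mael one of -0.014 with -0.098 to 0.070.

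Of the members, 0 of 10 passed at an adjusted p under 0.05 between HFD and control, where 0% of genes did by limma, with 884 genes (6.75%) at an unadjusted p under 0.05. Piwil2 was the one member at that p, lower, as were 3.84% of genes; it was not without control 2, control 3, HFD 1, HFD 3 or both libraries of high Crisp1, nor with quantile normalization or only the compared groups in the fit. The count of members was 2 without HFD 2 or with array weights. No member had groups without overlap, a state found on the lower side for 7.35% of genes and on the higher side for 5.17%. The median log2 fold change was -0.0055 over the members and -0.011 over all genes, with a Spearman rho of -0.237 with length. Round spermatid markers summed to 1962 ± 70.0 FPKM in HFD and 1830 ± 24.4 FPKM in control, with fold changes above 0 for 10 of 10. Fold changes were above 0 for 8 of 10 elongating spermatid markers and below 0 for 9 of 14 spermatocyte markers. None of these markers was called, and the part of length or of these cells in the members' values was not tested.

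AOS in the absence of the diet was examined in AOS testes, again beside these control libraries. All 10 members had a fold change below 0, and so did 59.8% of all genes. Tdrd6 was at 97.89, 99.95 and 99.55 FPKM in AOS, against 109.40, 117.97 and 110.38 FPKM in control. The 3 AOS libraries were close together and lay below all control libraries, with means of 99.1 ± 1.09 and 112.6 ± 4.69 FPKM (SD, n = 3 each). The log2 fold change was -0.18 (SE 0.048, 95% interval -0.28 to -0.079), with a limma adjusted p = 0.121 that ranged from 0.039 with array weights to 0.349 over the alternatives. Tdrd6 lies on chromosome 17 from 43615335 to 43630299 (mm10, minus strand) and has the longest transcript of the members, 7059 bases.

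Ddx4 was at 206.37, 217.49 and 213.21 FPKM in AOS, against 227.34, 237.07 and 224.35 FPKM in control, with no overlap (log2 fold change -0.11, SE 0.037, limma adjusted p = 0.173). Tdrd1 also had no overlap, at 38.32, 37.06 and 37.30 FPKM in AOS and 38.34, 43.35 and 41.81 FPKM in control, though by only a narrow margin (log2 fold change -0.13, SE 0.072). Mov10l1 was at 21.83, 20.95 and 23.19 FPKM in AOS, the lowest mean of the 6 groups, against 26.16, 25.55 and 22.97 FPKM in control, and AOS 3 lay above control 3 (log2 fold change -0.17, SE 0.082, limma adjusted p = 0.326). Piwil2 had a log2 fold change of -0.10 (SE 0.049). Piwil1, at 113.9 ± 4.84 FPKM in AOS and 115.0 ± 4.64 FPKM in control, had one of -0.014 with a 95% interval of -0.10 to 0.072.

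At an adjusted p under 0.05 there were 0 of 10 members in AOS against control, where 0.0229% of genes were called by limma (3 genes). An unadjusted p under 0.05 was found for 15.8% of genes (2071 genes) and for Tdrd6 and Ddx4, both lower, as were 10.2% of genes; the count of members was 5 without HFD 2 or with array weights, 4 without AOS 3, without control 1 or with only the compared groups in the fit, and 2 or 3 under the other alternatives. Lower values with no overlap were seen for 3 of 10 members and for 15.2% of genes, and higher ones for 0 members and 7.96% of genes. The median log2 fold change was -0.071 over the members and -0.029 over all genes. With libraries centred on their median, Piwil1, Mael and Tdrd5 had fold changes above 0. Genes with transcripts of at least 4568 bases had a median of -0.071 here and those of up to 1945 bases 0.038 (Spearman rho -0.305). Elongating spermatid markers summed to 58102 ± 932 FPKM in AOS and 48211 ± 3279 FPKM in control, and spermatocyte markers to 1773 ± 68.9 FPKM in AOS and 1838 ± 45.0 FPKM in control. Round spermatid markers summed to 1890 ± 39.4 FPKM in AOS and 1830 ± 24.4 FPKM in control, with fold changes above 0 for 7 of 10. Spermatogonia markers summed to 383 ± 18.3 FPKM in AOS and 356 ± 16.4 FPKM in control, with 4 of 6 tested above 0. Markers of somatic and blood cells lay lower on average. Leydig cell markers summed to 2954 ± 487 FPKM in AOS and 3790 ± 263 FPKM in control, with fold changes below 0 for 7 of 7 (median -0.36, log2 scale), and blood markers to 78.1 ± 17.9 FPKM in AOS and 118 ± 20.9 FPKM in control, with 3 of 3 tested below 0 (median -0.58). Fold changes were below 0 for 5 of 5 macrophage and 4 of 4 peritubular markers (medians -0.13 and -0.13) and for 5 of 9 Sertoli cell markers (median -0.028). No marker passed at an adjusted p under 0.05 by limma, and the part of these cells in the members' values was not tested.

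The AOS effect on the diet (HFD-AOS against HFD) was set against that without it (AOS against control) by an interaction term. No member passed, where 0% of genes did, with a lowest limma adjusted p = 0.805 (Tdrd6), and 899 genes had an unadjusted p under 0.05 (6.86%), among them 0 of 10 members, or 1 without HFD 2. The largest difference of log2 fold changes belonged to Mov10l1, at 0.16 with an SE of 0.12 and a 95% interval of -0.088 to 0.41. That of Piwil1 was -0.081 (SE 0.058, 95% interval -0.20 to 0.041).

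The balance of both PIWI genes is a ratio within a library, on which a scaling factor of the library has no effect. The ratio of Piwil1 to Piwil2 FPKM was 3.63 ± 0.0761 in HFD-conFMT, 3.63 ± 0.0540 in HFD-AOSFMT, 3.75 ± 0.0692 in HFD-AOS, 3.90 ± 0.103 in HFD, 3.77 ± 0.0857 in AOS and 3.54 ± 0.193 in control (SD, n = 3 each). By library it was 3.58, 3.58 and 3.72 in HFD-conFMT and 3.62, 3.58 and 3.69 in HFD-AOSFMT. Both groups lay wholly below HFD, at 3.99, 3.79 and 3.93. HFD-AOS, at 3.75, 3.82 and 3.68, overlapped HFD. In control it was 3.69, 3.32 and 3.60, so that HFD lay above control as well. AOS, at 3.865, 3.698 and 3.749, also lay above control, by a narrow margin. These ratios were read after the levels were seen and were not tested, and no share over other gene pairs was counted.

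Beyond the members, a list of 27 other genes of the pathway was read, of which 26 were in the table and 25 passed the filter on mean level (1 FPKM). Piwil4, the PIWI protein MIWI2 of fetal prospermatogonia, averaged 0.174 FPKM and was not tested. Hsp90aa1, a chaperone in PIWI loading, averaged 703 FPKM and Gtsf1, a zinc-finger partner of PIWI proteins, 407 FPKM. Of the 25 genes, 0 had an adjusted p under 0.05 in any of the 6 comparisons, with limma.

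Gtsf1 came closest. It was at 423.49, 416.45 and 425.29 FPKM in AOS, against 365.47, 350.17 and 378.65 FPKM in control, with no overlap (log2 fold change 0.21, SE 0.051, limma adjusted p = 0.109). Against the same controls HFD was at 403.89, 424.62 and 392.73 FPKM (log2 fold change 0.16, SE 0.051, limma adjusted p = 0.648). HFD did not overlap control either. Control had the lowest Gtsf1 mean of the 6 groups, at 364.8 FPKM, with the other groups at 407.1 to 423.8 FPKM. In HFD-AOS against HFD the log2 fold change of Gtsf1 was 0.016 (SE 0.051). In AOS against control its sign was opposite to that of Tdrd6 and Ddx4.

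Mybl1 had the smallest p-value of the list in both FMT comparisons with HFD. It was at 15.71, 14.83 and 14.34 FPKM in HFD-conFMT and at 16.12, 14.67 and 15.33 FPKM in HFD-AOSFMT, against 15.97, 17.66 and 17.05 FPKM in HFD. The log2 fold change was -0.16 for HFD-conFMT against HFD (SE 0.058, limma adjusted p = 0.293) and -0.13 for HFD-AOSFMT against HFD (SE 0.058, limma adjusted p = 0.486). Only HFD-conFMT lay wholly below HFD. Mybl1 was also lower in the comparisons without FMT. Its log2 fold change was -0.14 in HFD-AOS against HFD (SE 0.058, limma adjusted p = 0.353). In AOS against control it was -0.13 (SE 0.058, limma adjusted p = 0.306), with no overlap. Pnldc1, the exonuclease that trims piRNA ends, was at 4.41 ± 0.519 FPKM in HFD-conFMT and 5.31 ± 0.550 FPKM in HFD (log2 fold change -0.22, SE 0.10). It was as low in HFD-AOS, at 4.35 ± 0.308 FPKM, without overlap with HFD (log2 fold change -0.24, SE 0.10, limma adjusted p = 0.358).

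In HFD-AOS, Tdrd7, a Tudor protein of the chromatoid body, was at 73.62, 77.57 and 79.72 FPKM, against 83.11, 90.16 and 82.64 FPKM in HFD (log2 fold change -0.15, SE 0.045, limma adjusted p = 0.245). Hsp90aa1 was at 635.49, 663.15 and 634.58 FPKM in HFD-AOS and at 701.47, 790.40 and 701.68 FPKM in HFD (log2 fold change -0.18, SE 0.057, limma adjusted p = 0.255). Neither gene overlapped. Tdrd7 had a log2 fold change of -0.13 (SE 0.045, limma adjusted p = 0.206) in AOS against control. Of the remaining genes the rule picked, Fkbp6 differed by 0.12 (SE 0.072) in HFD-AOSFMT against HFD, Snd1 by -0.094 (SE 0.062) and Pnldc1 by 0.15 (SE 0.10) in HFD-AOSFMT against HFD-conFMT, and Tdrd12 by -0.15 (SE 0.089) in HFD against control, on the log2 scale.

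By direction, the list had 10 genes with a fold change above 0 and 15 below in HFD-conFMT against HFD, 8 and 17 in HFD-AOSFMT against HFD, and 15 and 10 in HFD-AOSFMT against HFD-conFMT. It had 6 above and 19 below in HFD-AOS against HFD, 12 and 13 in HFD against control, and 8 and 17 in AOS against control. Its median log2 fold changes, in that order, were -0.026, -0.027, 0.019, -0.071, -0.0061 and -0.045. Of all genes tested, 50.8, 52.6, 52.9, 56.1, 54.8 and 59.8% lay below 0 in the same order. The medians over all genes were -0.0020, -0.0061, -0.0053, -0.017, -0.011 and -0.029.

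**Figure D4:**
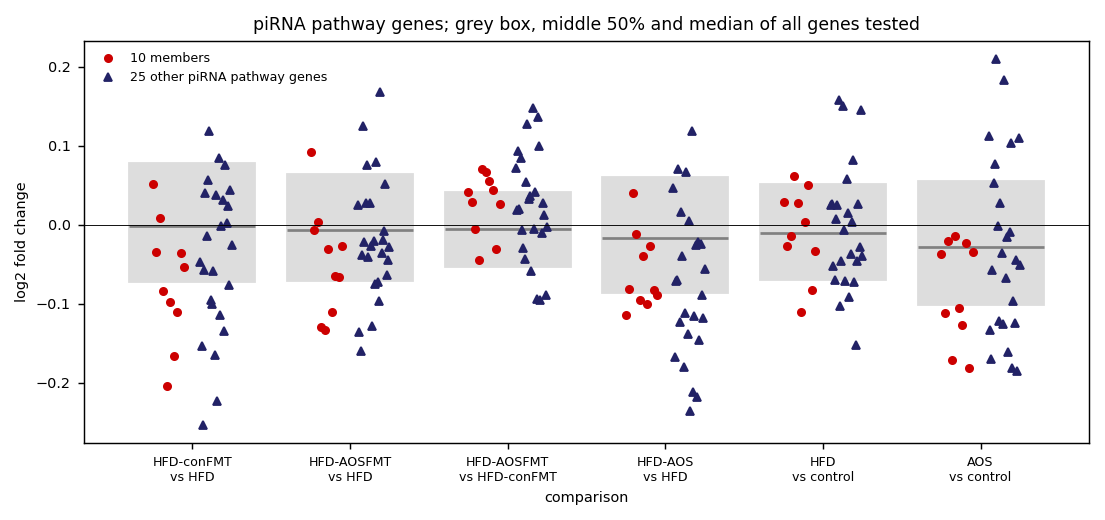
Log2 fold change of the 10 members (circles) and 25 other pathway genes (triangles) in the 6 comparisons; the grey box and line give the middle 50% and the median of all 13105 genes tested. Values of both lists fall between about -0.25 and 0.21, and Gtsf1 is the highest point in AOS against control.

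The genes whose pattern over the 18 libraries was most like that of the members, among 7983 other named genes averaging 5 FPKM or more, were Ralgapa1, Lrrcc1, Efr3a, Sycp2 and Pcm1. Likeness was the Pearson r with the mean z-score of the members, which was 0.942, 0.925, 0.919, 0.910 and 0.910 in that order (n = 18 libraries, given as a description because the genes were ranked on it). The points share library preparation and depth within a library. Without HFD 2 the values were 0.924, 0.901, 0.896, 0.926 and 0.902. Control 2 and HFD-AOS 3, whose mean z-scores lay as far from 0, were not left out, so the values may rest on them. Sycp2, a component of the synaptonemal complex of meiotic chromosomes, averaged 71.4 ± 2.57 FPKM in HFD-conFMT, 74.8 ± 1.99 FPKM in HFD-AOSFMT and 76.4 ± 5.86 FPKM in HFD-AOS. It averaged 82.3 ± 3.81 FPKM in HFD, 74.2 ± 1.02 FPKM in AOS and 86.5 ± 3.02 FPKM in control. The longest annotated transcripts of these 5 genes have 5215 to 8841 bases.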

How the data were processed

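A single table of 20985 rows, each giving 18 library values for a gene, was deposited, and its header names no unit. The deposited values were read as FPKM, made by the authors before deposit in a way the header does not state, because they are not whole numbers, library sums differ and the smallest steps scale inversely with transcript length. Bowtie 0.12.2 and the mm10 build are named in the submitters' processing notes. Which tool, annotation and strand setting served for counting is not given in the sources used here. Columns were matched to samples by group letters and replicate numbers. Symbols on more than 1 row (3 symbols, 6 rows) were not used.

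Values were taken as log2(FPKM + 1), a scale that makes changes of low genes look smaller, and 13105 genes averaging 1 FPKM or more were tested, all 10 members among them. One limma model (limma 3.58.1 in R 4.3.3) of the 6 groups with a mean-variance trend gave two-sided tests, with p-values adjusted over all genes by Benjamini and Hochberg and a threshold of 0.05. The model was also run on simulated data with changes of several sizes, the smallest of them near the largest differences of the members. Recovery was required only at the largest changes, far above those of the members. Recovery at the smallest size is not reported here, so no power at the size of the members' differences is given. Coordinates and lengths came from GENCODE M21 (GRCm38), promoters from RefSeq. Relative depth came from the smallest steps of 1147 genes of low level. Figures used matplotlib 3.10.9.

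The members and lists were chosen with earlier results of these data known. All members were named. Of the other pathway list, genes called in any comparison and the 2 of smallest p in each were named. The 5 genes most like the members were ranked by Pearson r. Alternatives covered pseudocount, filter, scaling, weights, trend, groups in the fit, replicate number and each library left out. Replicate numbers did not pair the libraries.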

Additional observations from a re-analysis of the deposited data

How the results depend on the processing

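Over 28 alternatives, 1904 of 1960 values for the members kept their direction and their side of the threshold, 55 changed sign and 1 passed the threshold. That was Tdrd6 in AOS against control with array weights (limma adjusted p = 0.039). Many of these values could not change sign by design, so the count is no measure of robustness. Changes of the filter, the trend or the groups in the fit leave a fold change as it was. So do the replicate block and leaving out a library of a group not compared. With quantile normalization Mael had log2 fold changes of -0.094 in HFD-conFMT against HFD, -0.064 in HFD-AOSFMT against HFD, 0.030 in HFD-AOSFMT against HFD-conFMT and -0.052 in HFD-AOS against HFD, and Mov10l1 had 0.0060 in HFD-AOS against HFD. With median centring Ddx4 was at 0.00074 in HFD-AOSFMT against HFD, Mov10l1 at 0.0084 in HFD-AOS against HFD, and Piwil1, Mael and Tdrd5 at 0.012, 0.0060 and 0.0027 in AOS against control. With array weights Mael was at -0.0029 in HFD-conFMT against HFD and -0.0088 in HFD-AOSFMT against HFD, Ddx4 at 0.0016 in HFD-AOSFMT against HFD, Tdrd1 at -0.037 in HFD against control, Piwil1 at 5.5e-05 in AOS against control and Tdrd5 at 0.021 for the difference of the AOS effects. Without both libraries of high Crisp1, an alternative chosen after seeing the data, Asz1 was at -0.028 in HFD against control, Piwil1 at 0.016 in AOS against control and Tdrd5 at 0.0080 for the difference of the AOS effects. The cause was not tested.

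Leaving out 1 library changed signs within these ranges. In HFD-conFMT against HFD they were -0.017 to 0.029 for Mael and -0.072 to 0.012 for Tdrd6, both through HFD 2. In HFD-AOSFMT against HFD they were -0.056 to 0.011 for Piwil2 and -0.087 to 0.025 for Tdrd9 (both through HFD 2), and -0.022 to 0.024 for Mael and -0.019 to 0.014 for Ddx4 (through HFD 2 or HFD-AOSFMT 3). In HFD-AOSFMT against HFD-conFMT they were -0.081 to 0.0037 for Mov10l1, -0.019 to 0.0047 for Mael and -0.0077 to 0.098 for Asz1. In HFD-AOS against HFD they were -0.064 to 0.0033 for Piwil2 (HFD 2) and -0.11 to 0.058 for Mov10l1 (HFD 2, HFD-AOS 2 or HFD-AOS 3). In HFD against control they were -0.034 to 0.011 for Mael, -0.090 to 0.053 for Tdrd1, -0.086 to 0.026 for Tdrd9 and -0.028 to 0.079 for Asz1. In AOS against control they were -0.041 to 0.021 for Piwil1, -0.054 to 0.0039 for Tdrd5 and -0.093 to 0.014 for Asz1. For the difference of the AOS effects they were -0.0023 to 0.056 for Ddx4, -0.024 to 0.12 for Tdrd1 and -0.031 to 0.027 for Tdrd5.

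Counts of genes called over the whole table were small and moved. AOS against control gave 3, and 240 with array weights, 5 with median centring and 0 with no filter on low values, with no mean-variance trend, with the compared groups alone, with quantile normalization or without both libraries of high Crisp1. HFD-AOSFMT against HFD gave 3, and 7 with array weights, 5 at a mean of at least 5 FPKM, 26 with no filter, and 1 with median centring, no trend, quantile normalization, the replicate block or without both libraries of high Crisp1. HFD-conFMT against HFD gave 0, and 9 with array weights, 3 with no filter and 1 with the compared groups alone or without both libraries of high Crisp1. HFD-AOSFMT against HFD-conFMT gave 1, and 16 with no filter. HFD-AOS against HFD gave 0, and 2 with no filter. HFD against control gave 0, and 1 with the compared groups alone. The F test gave 43, and 130 with array weights, 3 with no trend, 12 with quantile normalization, 20 with the replicate block and 1 without both libraries of high Crisp1. Leaving out 1 library gave 0 to 44 genes in AOS against control, 1 to 6 in HFD-AOSFMT against HFD, 0 to 17 in HFD-conFMT against HFD, 0 to 4 in HFD-AOS against HFD and 2 to 145 in the F test.

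Replicate numbers are shared by the groups, but deviations of same-numbered libraries correlated at -0.243 to 0.167, with 2 of 45 pairs over 0.1, and 6 of 18 libraries correlated best with their own number. With the replicate block, Piwil1 in HFD-conFMT against HFD had an adjusted p = 0.13 and 0 of 10 members were called in any comparison. Absolute depth is not given, so no counting interval could be set for the lower members such as Asz1.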
